A study of Rattus norvegicus with 8 samples.

Results

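The 9 genes described here belong to the interferon response: Stat2, Irf1, Irf7, Isg15, Ifit2, Ifit3, Mx1, Mx2 and Oas1a. They were taken by symbol, through the RefSeq accession of each array probe, from 10003 genes that had a probe above background, and all 9 were measured. Where a gene had more than 1 probe, as Irf1 did, the probe with the highest mean Cy5 intensity stood for it. Livers came from adult male Sprague-Dawley rats aged 78 to 86 days and were measured on 8 two-colour Agilent arrays of 1 slide, with liver RNA in Cy5 and a universal rat reference RNA, made from 14 cell lines, in Cy3 on every array. In the AhR group (4 arrays), the dams had received a mixture of agonists of the aryl hydrocarbon receptor (AhR), a ligand-activated transcription factor, in corn oil from gestation day 0 to postnatal day 20. The mixture held non-ortho-PCBs, PCDDs and PCDFs, and its daily dose was 1.8 ng per kg in equivalents of TCDD, the reference dioxin. In the control group (4 arrays), the dams had received corn oil alone. Each array held a pool of 2 rats, so that 8 pups stood behind a group, and pups stayed with their own dams, so that exposure before and after birth cannot be told apart. The offspring were measured weeks after dosing of the dams had ended.

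Interferons are secreted proteins by which cells that sense viral nucleic acid, and activated immune cells, alert their neighbours. Type I interferons bind the receptor pair IFNAR1 and IFNAR2, the kinases JAK1 and TYK2 phosphorylate STAT proteins, STAT2 among them, and these join IRF9 in a complex that binds the interferon-stimulated response element (ISRE) in the promoters of target genes. Interferon gamma has its own receptor and acts on genes through the gamma-activated site (GAS). Many cells hold a low, tonic level of these transcripts even without infection. Among the 9 genes, Stat2, Irf1 and Irf7 encode transcription factors, and Isg15, Ifit2, Ifit3, Mx1, Mx2 and Oas1a encode effector proteins.

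Promoters show how closely these elements sit to the start of some of the genes. The RefSeq promoter table (assembly GRCr8, 250 bases before to 50 bases after each gene's start) held 6 of the 9 genes. The ISRE core was searched as GAAANNGAAA on both strands and was found in Irf7, Ifit3 and Oas1a, against 3.92% of 33469 promoters of the same length. The GAS was searched as TTCNNNGAA, which reads alike on both strands, and was found in Irf1 and Oas1a, against 8.87% of promoters. In Stat2 and Mx1 neither set of letters occurred in this window, which says nothing of elements elsewhere. The 4 promoters with a match are printed 5′ to 3′ along the gene, with matches in capitals. Irf7, Ifit3 and Oas1a moved together across arrays, but so did Mx1, which had no match, and Isg15, whose promoter was not held. Irf1 in control 1 was 0.27 below the mean of the other controls, but control 4 was just as low (-0.14, against -0.13 in control 1). A link between matches and the pattern over arrays was not tested.
Irf7, chr1:205799974-205800273, minus strand: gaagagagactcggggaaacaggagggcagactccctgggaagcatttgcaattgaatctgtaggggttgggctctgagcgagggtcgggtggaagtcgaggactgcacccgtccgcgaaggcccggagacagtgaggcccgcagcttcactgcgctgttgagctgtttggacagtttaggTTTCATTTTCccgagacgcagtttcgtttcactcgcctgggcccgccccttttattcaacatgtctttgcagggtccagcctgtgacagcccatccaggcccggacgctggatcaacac
Ifit3, chr1:241527076-241527375, plus strand: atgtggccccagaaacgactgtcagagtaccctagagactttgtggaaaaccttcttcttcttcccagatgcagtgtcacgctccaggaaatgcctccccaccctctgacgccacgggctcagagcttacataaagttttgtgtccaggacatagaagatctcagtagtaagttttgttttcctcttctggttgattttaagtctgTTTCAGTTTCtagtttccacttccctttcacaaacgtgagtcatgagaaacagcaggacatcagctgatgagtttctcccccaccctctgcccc
Oas1a, chr12:41330216-41330515, plus strand: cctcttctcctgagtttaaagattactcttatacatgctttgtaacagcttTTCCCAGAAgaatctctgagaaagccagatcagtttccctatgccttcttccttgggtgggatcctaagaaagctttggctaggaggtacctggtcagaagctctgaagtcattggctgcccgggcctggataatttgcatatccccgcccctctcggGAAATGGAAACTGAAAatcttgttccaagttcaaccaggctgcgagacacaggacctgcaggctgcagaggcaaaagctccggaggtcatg
Irf1, chr10:38417685-38417984, plus strand: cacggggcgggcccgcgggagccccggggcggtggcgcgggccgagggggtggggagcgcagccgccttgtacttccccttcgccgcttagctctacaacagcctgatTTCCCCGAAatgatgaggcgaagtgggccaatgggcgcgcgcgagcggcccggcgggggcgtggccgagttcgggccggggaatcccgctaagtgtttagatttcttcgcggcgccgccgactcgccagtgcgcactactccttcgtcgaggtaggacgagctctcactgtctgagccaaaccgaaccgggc
The ISRE core began 69 bases before the start of Irf7 and 44 bases before that of Ifit3, both on the strand opposite to the gene. In Oas1a, 2 overlapping copies began 41 and 35 bases before the start on the gene's own strand, and a GAS began 199 bases before it. In Irf1, the GAS began 142 bases before the start. A match of letters is a description of the sequence and not evidence of binding.

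Before the results, 1 array needs a description. Control 1 had the lowest median correlation with the other arrays over kept probes, 0.48, where the other 7 arrays lay between 0.55 and 0.65. It also had the lowest share of probes well above background, 56.2%, against up to 62.0% on other arrays, and a median Cy5 intensity of 159, at the low end of 159 to 232. The differences between AhR and control livers are therefore given with and without control 1 for the 9 genes and for the other genes shown by array. The replicate number of all 8 arrays was also their column on the slide, each column holding 1 AhR and 1 control array. The labels do not say whether pools shared a litter, so a p-value covers only how much pools varied. As a check of the tissue, all 12 hepatocyte markers were well above background on all 8 arrays.

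None of the 9 interferon response genes passed the test for a difference between AhR and control livers. Of all 17857 probes kept, 0% (0 probes) passed an adjusted p of 0.05 in limma, a linear model with moderated variances and Benjamini-Hochberg adjustment over all probes, and 1.61% had an unadjusted p under 0.05. None of the 9 genes reached even the unadjusted threshold, and in none did the 4 AhR arrays lie wholly above or below the 4 control arrays, a separation seen for 1.19% of probes. Means were higher in AhR livers for 4 of 9 genes, where 47.7% of all probes were higher. The median difference, AhR minus control, was -0.0028 on the log2 scale for the 9 genes and -0.0058 for all probes. Without control 1 the median of the 9 was -0.19, against -0.012 for all probes. Then 8 of 9 genes were lower in AhR livers, where 55% of all probes were lower, and again none had an unadjusted p under 0.05, against 1.8% of probes. Leaving out control 3 instead moved the genes the other way. Their median was then 0.07, and only Irf1 (-0.07) and Ifit2 (-0.17) were lower in AhR livers. The direction of the 9 genes thus depended on which single control was left out. All values below are log2 ratios of liver over reference RNA, with arrays named by group and replicate.

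Stat2 encodes the STAT that is dedicated to type I and type III interferon signalling. Its log2 ratio was 0.02, 0.16, -0.13 and 0.03 on AhR arrays 1 to 4, against -0.12, 0.23, 0.22 and -0.26 on control arrays 1 to 4. The control arrays spanned the AhR arrays on both sides, and control 4, not control 1, was lowest. The mean was 0.019 ± 0.117 in AhR livers and 0.018 ± 0.245 in control livers (SD, n = 4 each), a difference of 0.00045 with an SE of 0.13 (limma adjusted p = 1.00) and a 95% interval of -0.28 to 0.28. Without control 1 the difference was -0.05, with an interval of -0.35 to 0.26.

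Irf1, a transcription factor induced by interferon gamma and by type I interferons, had the lowest AhR mean relative to control. It was at -0.39, -0.25, -0.04 and 0.12 on the AhR arrays, against -0.13, 0.05, 0.49 and -0.14 on the control arrays. Control 3 alone was well above the rest, and AhR 4 lay above 3 of the controls. The difference was -0.21 with an SE of 0.16 (limma adjusted p = 1.00, exact permutation p = 0.31), and it was -0.28 without control 1 and -0.07 without control 3. A second, dimmer Irf1 probe with 1 spot per array left the gene's difference at -0.25 when both probes were averaged.

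Irf7 encodes the factor that amplifies type I interferon production and is itself an interferon target. The AhR arrays had 0.24, 0.54, 0.71 and 0.35, against -0.59, 0.73, 1.01 and 0.51 on the control arrays. Controls 2 and 3 exceeded every AhR array, and control 1 lay below every other array by a wide margin. The mean was 0.46 ± 0.21 in AhR livers and 0.41 ± 0.70 in control livers (SD, n = 4 each). The difference of 0.04 had a 95% interval of -0.58 to 0.67. Without control 1 it was -0.29, with an SE of 0.15 and an interval of -0.63 to 0.04 (limma adjusted p = 1.00). That change of sign came from 1 array: control 1 was 1.10 below the next lowest control.

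Isg15 encodes a ubiquitin-like protein that is attached to other proteins after interferon exposure. It was at -0.45, 0.39, 0.31 and -0.12 on the AhR arrays, against -0.44, 0.45, 0.56 and 0.02 on the control arrays. In both groups array 1 was lowest, at nearly the same value, and arrays 2 and 3 were high. The difference was -0.11 with an SE of 0.24, and -0.31 with an SE of 0.21 without control 1 (limma adjusted p = 1.00 in both).

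The IFIT proteins bind viral RNA and limit its translation, and Ifit2 and Ifit3 are neighbouring genes. Ifit2 was at -0.40, -0.04, 0.05 and -0.50 on the AhR arrays, against -0.05, -0.19, -0.01 and 0.09 on the control arrays. AhR 1 and AhR 4 were lower than all controls, while AhR 2 and AhR 3 lay among them. The difference was -0.18 with an SE of 0.13, and -0.19 without control 1 (limma adjusted p = 1.00 in both). Ifit3 had 0.17, 0.45, 0.42 and 0.18 on the AhR arrays, against -0.33, 0.17, 0.43 and 0.36 on the control arrays. Control 1 was the only array below 0, and the other 7 overlapped. Its difference was 0.14 with an SE of 0.16, and -0.02 with an SE of 0.12 without control 1. Although adjacent, the pair differed in which arrays were low: Ifit2 was low in AhR 1 and AhR 4, and Ifit3 in control 1.

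Mx1 and Mx2 encode dynamin-like GTPases that block viral replication, and they lie side by side in the genome. Mx1 was at -0.12, 0.61, 0.63 and 0.29 on the AhR arrays, against -0.50, 0.72, 1.14 and 0.18 on the control arrays. The controls held both the lowest and the highest array, and the 4 AhR arrays fell between them. The mean was 0.35 ± 0.35 in AhR livers and 0.39 ± 0.71 in control livers (SD, n = 4 each). The difference was -0.03 with an SE of 0.31, and -0.33 with an SE of 0.24 without control 1.

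Mx2 was at 0.08, 0.08, 0.15 and 0.26 on the AhR arrays, against 0.15, 0.21, 0.34 and -0.11 on the control arrays. It had the narrowest range of the 9 genes, 0.46, and control 1 sat in the middle of it. The difference was -0.0028 with an SE of 0.11 and an interval of -0.25 to 0.24, and -0.0024 without control 1. After quantile normalization of each channel, the SD of Mx2 over arrays was 0.062 in the Cy5 liver channel and 0.091 in the Cy3 reference channel, so that the reference varied at least as much as the liver.

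Oas1a encodes an oligoadenylate synthetase, which makes the second messenger that activates RNase L. It had 0.40, 0.67, 0.92 and 0.69 on the AhR arrays, against -0.30, 0.60, 1.03 and 0.27 on the control arrays. All 4 AhR arrays were above 0, and only control 1 was below it. The mean was 0.67 ± 0.21 in AhR livers and 0.40 ± 0.56 in control livers (SD, n = 4 each), the largest positive difference of the 9 genes at 0.27 with an SE of 0.24 (limma adjusted p = 1.00, exact permutation p = 0.43). The difference was 0.03 without control 1 and 0.48 without control 3. Mx1 and Mx2, Ifit2 and Ifit3, and the Oas1 genes are related families, and cross-hybridisation between their probes was not tested.

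**Figure D1:**
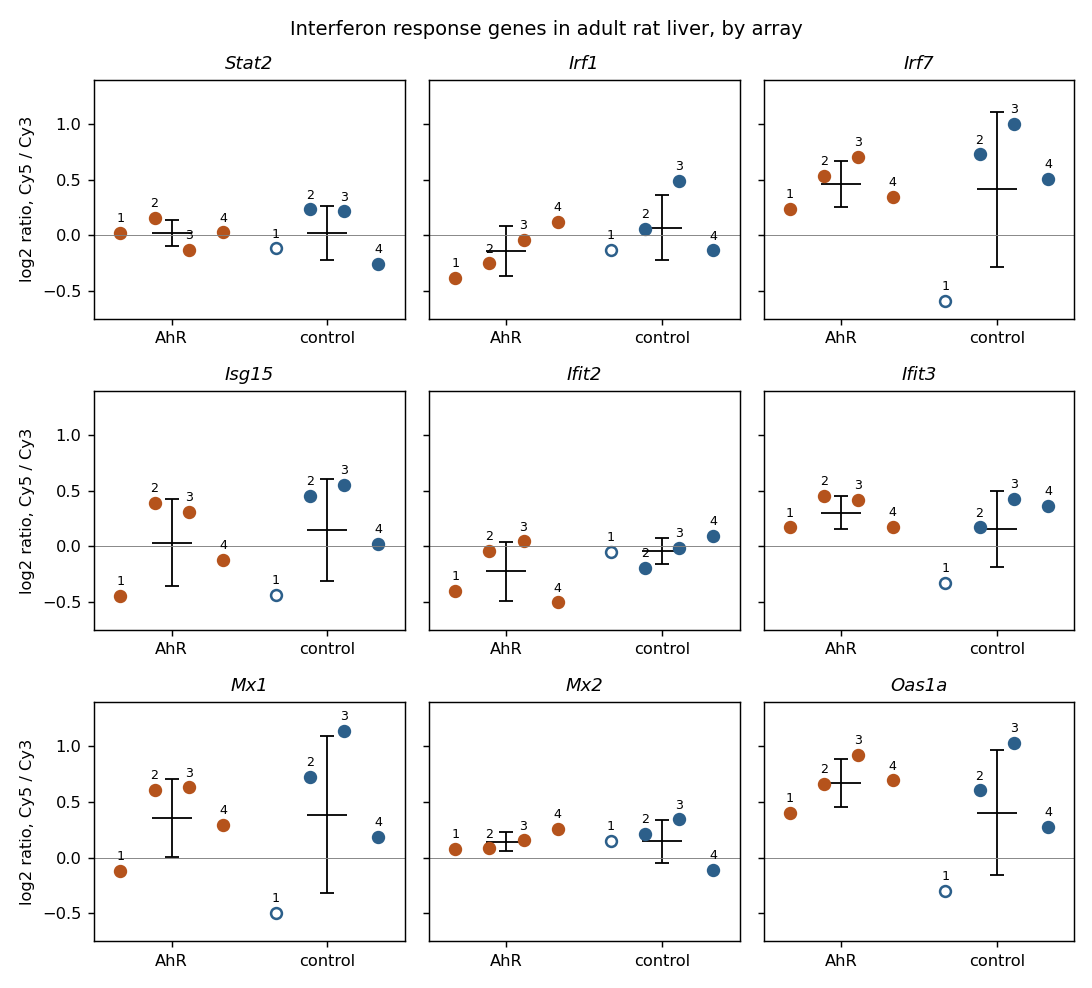
Log2 ratio (Cy5 liver over Cy3 reference) of each gene on each array, AhR left and control right, with array numbers beside the points, control 1 as an open circle, and the mean ± SD (n = 4) in black. Control 1 is the lowest of 8 arrays for Irf7, Ifit3, Mx1 and Oas1a, and control 3 is the highest for 6 of 9 genes.

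**Figure D2:**
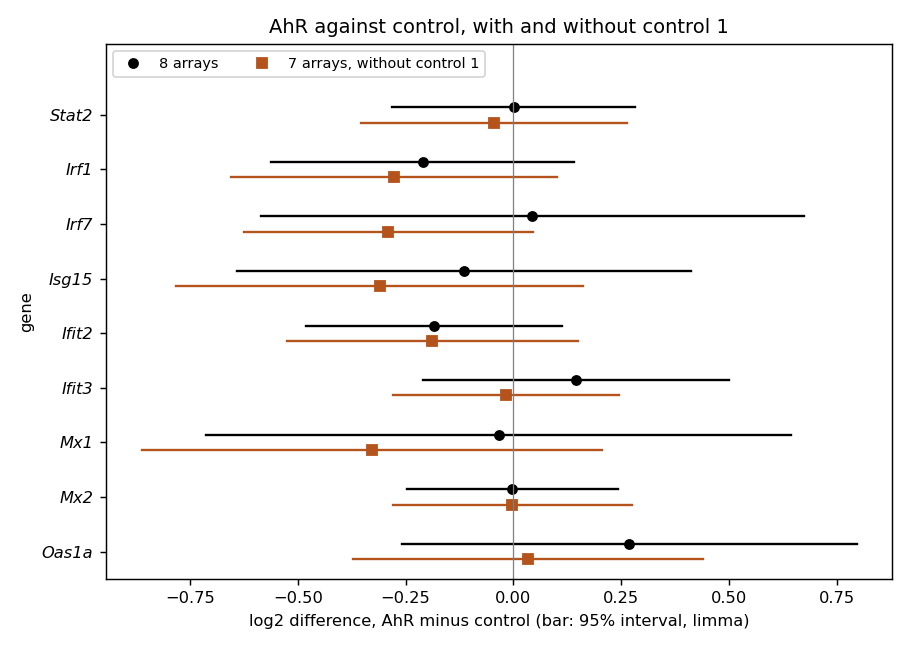
Difference between AhR and control livers (log2, limma) with 95% intervals, on all 8 arrays (circles) and on 7 arrays without control 1 (squares), by gene. Every interval spans 0, and for Irf7 the value is 0.04 with control 1 and -0.29 without it.

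For all 9 genes the range over arrays was wider than the gene's largest difference between duplicate spots. Each gene had 2 spots per array, and the median difference between duplicate spots was 0.03 to 0.09, while the arrays of a gene spanned 0.46 to 1.64. The largest spot differences were 0.29 for Ifit2, whose arrays spanned 0.60, and 0.26 for Ifit3, whose arrays spanned 0.78. These are unlike measures, since a range over 8 arrays exceeds a difference of 2 spots even at equal noise. Duplicate spots share their labelling and hybridisation, whose own error was not measured apart from the pools. The reference channel varied little, with an SD of 0.04 to 0.09 over arrays, whereas the liver channel reached an SD of 0.54 for Mx1. Within groups, Mx1 varied more than 98.8% of all kept probes, Irf7 more than 98.3%, Oas1a more than 96.7% and Isg15 more than 96.7%. Ifit3 and Irf1 followed at 83.5% and 82.9%. Ifit2 and Stat2 were nearer the middle, at 67.2% and 60.8%, and Mx2 varied more than only 38.7% of probes.

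The 9 genes moved together across arrays, but not evenly. Over the 36 pairs of genes the median Pearson r was 0.50, against 0.004 over all 50025003 pairs of the 10003 genes. Of the 36 pairs, 11 (30.6%) had r of at least 0.7, against 4.28% of all pairs. Without control 1 the median was 0.58 and 12 pairs reached 0.7, against 5.28% of all pairs. These pairs share arrays, loess fit and reference RNA with every other pair, and the genes had been chosen with earlier results of these data known, so the comparison is a description.

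Irf7, Isg15, Ifit3, Mx1 and Oas1a formed the tight group over the 8 arrays, picked out after their correlations were seen. Their 10 pairs had r between 0.71 and 0.95, with a median of 0.87. The highest values were those of Isg15 with Mx1 (r = 0.95, rho = 0.93) and Irf7 with Mx1 (r = 0.93, rho = 0.98), followed by Irf7 with Oas1a (r = 0.91, rho = 0.71). Pools with a high level of the factor Irf7 were thus those with high levels of the effectors Mx1 and Isg15. Of all 36 pairs, 5 passed an adjusted p of 0.05 in a two-sided exact permutation test over the 8 arrays, with adjustment over the 36 pairs, and 4 passed by Spearman's rho. The lowest adjusted p was 0.0048, shared by Irf7 with Isg15, Irf7 with Mx1 and Isg15 with Mx1 in that exact permutation test. All 5 pairs that passed by Pearson r lay within the tight group. The genes had been chosen with earlier results of these data known, so these p-values only describe the pairs. They cannot test whether the genes move together.

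Control 1 weighed differently on the pairs. Without it, the 10 pairs had a median r of 0.67 and ranged from 0.44 to 0.94. The trio of Irf7, Isg15 and Mx1 held between 0.90 and 0.94. The pairs of Ifit3 with Irf7, Mx1 and Oas1a were at 0.55, 0.53 and 0.44 without control 1, against 0.89, 0.78 and 0.83 on 8 arrays. When control 3, the high array, was left out as well, the 10 pairs had a median r of 0.50 over 6 arrays, while the trio lay between 0.89 and 0.97. Leaving out for each pair the 2 arrays farthest from the median of its first gene gave r of 0.42 to 0.92. The first gene was taken in the order listed at the start, and distance in the second gene was not used. Mx1 with Oas1a was at 0.81 without control 1 and 0.68 without both, against 0.90 on 8 arrays, and Ifit3 with Oas1a was at 0.27 without both.

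AhR 1 and control 1 shared a slide column. Each was the lowest array of its group for every gene of the tight group: Irf7, Isg15, Ifit3, Mx1 and Oas1a. For Ifit3, AhR 1 (0.17) was only just below AhR 4 (0.18). With each column's mean removed, which leaves the difference within each of 4 columns, the 36 pairs had a median r of 0.34, against 0.006 over all pairs of genes. Then 7 of the 36 reached 0.7, against 11.7% of all pairs. The 10 pairs of the tight group had a median of 0.59 and ranged from -0.18 to 0.78. Within the trio, r was 0.78 for Irf7 with Mx1, 0.60 for Isg15 with Mx1 and 0.38 for Irf7 with Isg15. The permutation tests above exchanged arrays across columns and took no account of this shared position.

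On 8 arrays the other 4 genes stood further out. Stat2 had r of 0.21 to 0.67 with the other genes except Ifit2, and Irf1 paired best with Mx2 (r = 0.74, rho = 0.93). Ifit2 was the gene least like the rest, with a median r of 0.15 with the other 8 genes and negative r with Stat2 (-0.29), Mx2 (-0.32) and Oas1a (-0.02). Its r with its neighbour Ifit3 was 0.27 on 8 arrays and 0.84 without control 1, where Ifit3 was low and Ifit2 was not. Mx2 had r of 0.47 with its neighbour Mx1. Set against the mean of the other 8 genes, each standardised, Mx1 had r of 0.99, higher than that of any other named gene outside the list, and Isg15 had 0.91, Irf7 0.87 and Oas1a 0.85. Ifit3 had 0.65, Irf1 0.63, Stat2 0.52 and Mx2 0.42, and Ifit2 had 0.10, a value that 42.4% of other genes exceeded. Without control 1, Mx1, Irf7, Isg15 and Oas1a had 0.99, 0.93, 0.89 and 0.80. Irf1 (0.72) and Mx2 (0.55) were then above Ifit3 (0.47), and Stat2 (0.41) and Ifit2 (0.37) below it. The line between the tight group and the other genes thus changed with control 1.

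**Figure D3:**
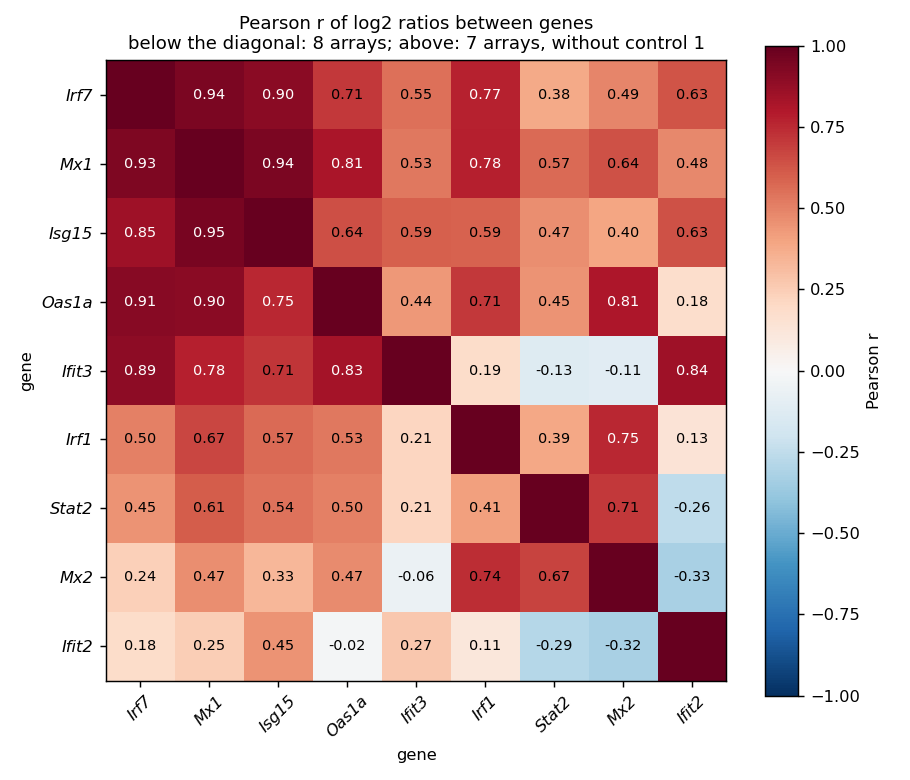
Pearson r of log2 ratios for each pair of genes (colour and number), over 8 arrays below the diagonal and over 7 arrays without control 1 above it. Irf7, Mx1 and Isg15 keep r of 0.90 to 0.94 without control 1, while Ifit2 lies between -0.32 and 0.45 with the other genes on 8 arrays.

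The weight of control 1 was large for the interferon genes compared with other probes. Control 1 was the lowest of the 8 arrays for 4 of 9 genes (Irf7, Ifit3, Mx1 and Oas1a), and for 18.2% of all probes. It lay at least 0.5 below the mean of the other controls for 5 of 9 genes, and for 3.42% of probes. The gap was -1.34 for Irf7, -1.18 for Mx1, -0.94 for Oas1a, -0.78 for Isg15 and -0.65 for Ifit3. It was -0.27 for Irf1, -0.18 for Stat2, -0.02 for Ifit2 and 0.0015 for Mx2. Control 1 was below the mean of the other controls at all in 8 of 9 genes, and in 53.7% of probes. In what follows, lower in control 1 likewise means lower than that mean, and not lower than each other control. The 5 genes with the gap were those that correlated most tightly over the 8 arrays, and control 1 enters those correlations. The median gap of the 9 was -0.65, against -0.02 for all probes. At the other end, control 3 was the highest of the 8 arrays for 6 of 9 genes, and for 13.2% of all probes.

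Control 1 was also low in markers of liver macrophages. Of 18 Kupffer cell and macrophage markers, 16 were measured, each well above background on all 8 arrays. Control 1 was below the other controls in 14, with a median gap of -0.79. Their mean log2 ratio ran from -0.18 to 0.32 over the AhR arrays and from -0.64 to 0.14 over the control arrays, with control 1 the lowest, and the other controls began at -0.06. The scavenger receptor Marco had a gap of -1.73, Cd5l had -1.17, and the complement subunits C1qa, C1qb and C1qc had -1.01, -0.77 and -1.06. Clec4f, a defining Kupffer cell lectin, had -0.81, while Lyz2 and Cd14 were higher in control 1, at 0.15 and 0.33. Among 7 measured genes of MHC class II, 6 were lower in control 1, with a median of -0.93 and with Cd74, the invariant chain, at -1.23. Of 12 hepatocyte markers 7 were lower in control 1, with a median of -0.20. Serpina1, which encodes alpha-1-antitrypsin, had the lowest value, -0.72, and Alb, albumin, the highest, 0.57. In bulk liver, fewer cells of a type and less RNA per cell cannot be told apart, and the part of these markers in the interferon genes' gap was not tested.

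Other cell types were measured less completely. Of 16 T and NK cell markers, 9 were measured and 7, among them Cd3e, Cd2 and Ncr1, were not well above background on enough arrays. Control 1 was lower in 8 of the 9, with a median of -0.27. Of 6 plasmacytoid dendritic cell markers, the cells known for high interferon output, 5 were measured and control 1 was lower in 3, with a median of -0.07. The 4 measured B cell markers had a median of -0.23 and the 3 measured neutrophil markers one of -0.36.

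The rest of the interferon pathway was followed in 10 further lists of 149 genes, of which 101 were measured. None passed the adjusted threshold in limma, and 46 were higher and 55 lower in AhR livers, where 47.7% of all probes were higher. An unadjusted limma p under 0.05 was reached by 3 of the 101, against 1.61% of all probes. Many of the genes named below were picked for having the lowest p of their list. Without control 1 a total of 82 were lower, where 55% of all probes were. Of the ligands, Ifnb1 and Ifng had probes that were not well above background on any of the 8 arrays. Ifna4, an interferon alpha gene, was above background on all 8 arrays and differed by 0.06, and by 0.07 without control 1. Among the 9 measured genes for ligands, receptors and signalling, 6 were higher and 3 lower in AhR livers, with a median difference of 0.04, and of -0.05 without control 1. Irf9, which gives the interferon complex its contact with DNA, was at -0.72 in control 1 relative to the other controls, and differed by 0.08 between AhR and control livers with an SE of 0.18 (limma adjusted p = 1.00), and by -0.10 without control 1. Receptor subunits Ifngr2 and Il10rb differed by -0.14 and -0.13.

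Antiviral effectors outside the 9 genes gave the largest list, with 35 of 48 genes measured. In AhR livers 14 were higher and 21 lower, with a median difference of -0.03, and without control 1 29 were lower, with a median of -0.10. Dtx3l, a ubiquitin ligase partner of Parp9, had the lowest p of the list: it was at -0.08, 0.02, 0.10 and -0.15 on the AhR arrays, against 0.09, 0.79, 0.44 and 0.17 on the control arrays. All but AhR 3 lay below every control, and the difference was -0.40 with an SE of 0.15 (limma unadjusted p = 0.020, adjusted p = 1.00), and -0.50 without control 1. Ifi44 followed at -0.27 and Ifitm2 at 0.33. Rsad2, which encodes viperin, ranged widely, with its lowest value, -1.25, in AhR 3 and its highest, 0.99, in control 2. It differed by -0.38 with an SE of 0.43, and by -0.55 without control 1. Ifit1 and Oas2 were above background on only 1 array each and were not measured.

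Many of these effectors had an array pattern like that of the 9 genes. Control 1 was below the other controls in 32 of the 35, with a median gap of -0.41, against 53.7% of all probes. With the mean standardised profile of the 9 genes their median r was 0.56 over 8 arrays and 0.49 without control 1, against 0.01 for all other genes in both. An r of at least 0.7 was reached by 12 of 35 effectors (34.3%), against 3.46% of other genes. Without control 1 it was reached by 10 (28.6%), against 4.4%. The closest were Slfn4 (0.96), Oas1k (0.94) and Oas1i (0.92), of which Oas1k and Oas1i are paralogs of Oas1a, and Isg20 was lowest at -0.30. A like median r over 8 arrays was not particular to these effectors. Kupffer cell and macrophage markers had 0.55, and 0.30 without control 1. T and NK cell markers had 0.55, and 0.38 without control 1. Medians of the other cell type marker lists over 8 arrays ran from -0.05 (endothelial) to 0.26 (red cell).

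Guanylate-binding proteins, immunity-related GTPases and the CXCR3 chemokines are known for their induction by interferon gamma. Of the 4 measured interferon-inducible GTPases, all 4 were lower in AhR livers, with a median of -0.12, and Gbp5 was at -0.28 with an SE of 0.11 (limma unadjusted p = 0.034, adjusted p = 1.00). Gbp2 differed by -0.07, with control 1 at -1.06 from the other controls, and Irgm by -0.16, with control 1 at -0.94. Gbp5 and Igtp were not low in control 1, at 0.12 and 0.02. Of 6 chemokine genes, 5 were lower in AhR livers, with a median of -0.14, and all 6 were lower in control 1 than in the other controls, with a median of -0.48. Cxcl10, which draws T cells, was at 0.03, 0.45, 0.28 and -0.22 on the AhR arrays, against -0.27, 0.40, 1.23 and 0.44 on the control arrays. Control 3 stood above all others, and the difference was -0.32 with an SE of 0.27, and -0.56 without control 1. Cxcl11 differed by -0.17 and Cxcl16 by 0.18.

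Antigen presentation genes of both classes were measured. MHC class I and immunoproteasome genes (17 of 20 measured) had 8 higher and 9 lower in AhR livers, with a median of -0.0052. The immunoproteasome subunit Psmb10 was at -0.24 with an SE of 0.10 (limma unadjusted p = 0.033, adjusted p = 1.00), Psme2 at -0.15 and Psmb9 at -0.17, while Psmb8 was at 0.0021. MHC class II genes (7 of 8 measured) had 5 higher and 2 lower, with a median of 0.09, and without control 1 6 of 7 were lower, with a median of -0.10. Their median r with the 9 genes' profile was 0.75 on 8 arrays and 0.65 without control 1.

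Regulators of the pathway were also compared. ISG15 conjugation had 2 of 5 genes measured: Ube2l6, the conjugating enzyme, differed by -0.16, and Usp18, which removes ISG15 and restrains the interferon receptor, by 0.07 with an SE of 0.26, and by -0.18 without control 1. Usp18 was at 0.17, 0.68, 0.59 and 0.41 on the AhR arrays, against -0.35, 0.67, 1.06 and 0.19 on the control arrays, with control 1 lowest and control 3 highest as for Irf7. Among 8 measured suppressors 7 were higher in AhR livers, with a median of 0.05 and values for Socs2, Socs3 and Ptpn2 of 0.17, 0.06 and 0.06, and Socs1 was above background on no array. Of 9 sensors and adaptors 3 were higher and 6 lower, with a median of -0.06, and Ifih1, Tlr3 and Ikbke were at -0.13, -0.09 and -0.19. Of 4 other IRF genes 1 was higher, Irf5 at 0.18, and Irf3 was at -0.05.

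Inflammatory genes outside the interferon pathway were compared as well. The 20 measured genes of the NF-kB and acute phase list had a median r of 0.03 with the 9 genes' profile, and control 1 differed from the other controls by a median of 0.04. In AhR livers 12 were higher and 8 lower, with a median of 0.04. Hamp, which encodes the iron hormone hepcidin, was at 0.77, 0.79, 1.05 and 1.01 on the AhR arrays, against 0.45, -0.14, -0.03 and 0.62 on the control arrays. Every AhR array was above every control, where 1.19% of all probes had groups that did not overlap. The difference was 0.68 with an SE of 0.17 (limma unadjusted p = 0.0020, adjusted p = 1.00), and 0.76 without control 1. Hamp was named because its p was the lowest of the list, so its separation was picked out and is not a separate result. Lcn2, lipocalin 2, differed by 0.47 with an SE of 0.17 (limma unadjusted p = 0.017, adjusted p = 1.00), and Saa4 by 0.16.

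**Figure D4:**
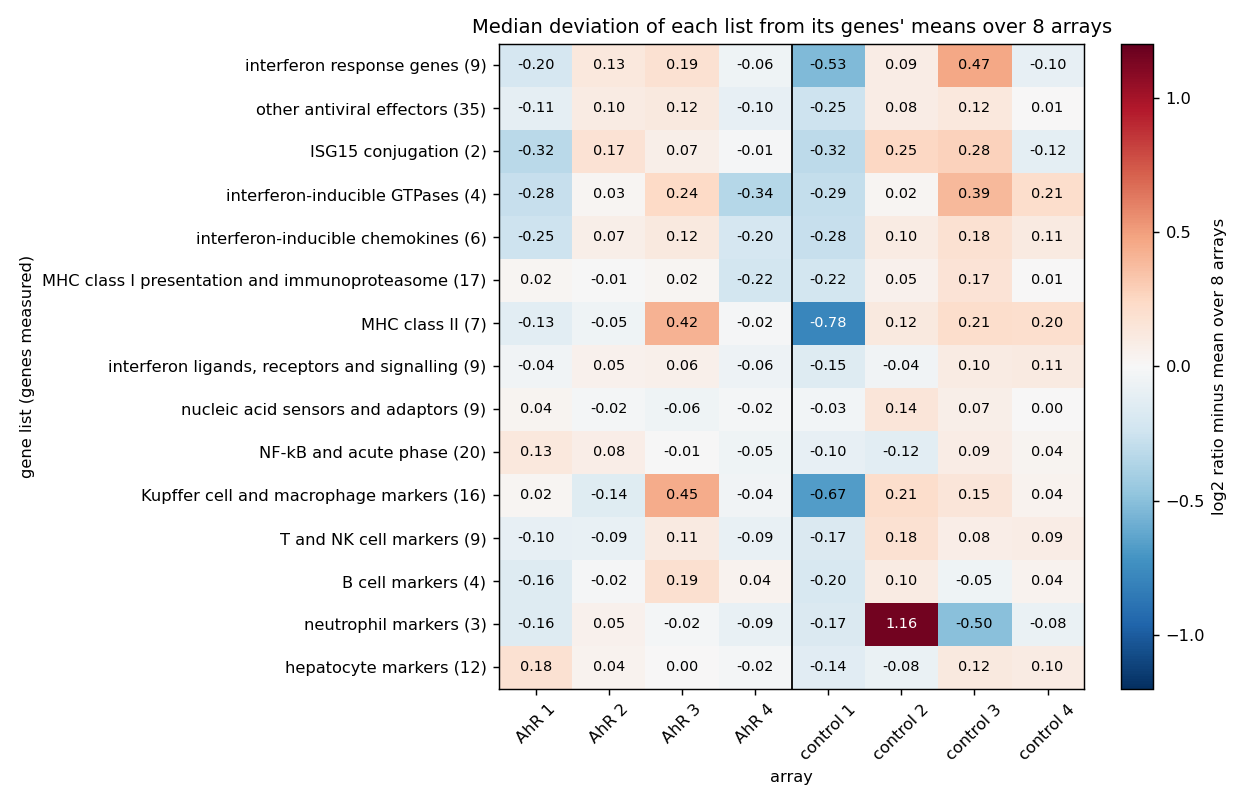
Median deviation of each gene list from its genes' own means over 8 arrays (log2, colour and number), with AhR arrays left and control arrays right of the line and the number of genes measured in brackets. Control 1 is lowest for the interferon response genes (-0.53), MHC class II (-0.78) and Kupffer cell and macrophage markers (-0.67). It is also lowest, by smaller values, for chemokines (-0.28), other antiviral effectors (-0.25), MHC class I (-0.22) and B cell markers (-0.20). The same holds for T and NK cell markers (-0.17), ligands, receptors and signalling (-0.15) and hepatocyte markers (-0.14). NF-kB and acute phase genes are at -0.10 there, with control 2 lower (-0.12).

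Genes with the most similar pattern were taken by Pearson r with the mean standardised profile of the 9 genes. Over 8 arrays Usp18 came first (r = 0.98), followed by Inhbc (0.98), Trip4 (0.96), Slfn4 (0.96), Sp110 (0.95), Psap (0.95), Gna15 (0.95), Oas1k (0.94), Rrm2 (0.94) and Tmem97 (0.94). Without control 1 they were Apol7b (1.00), Usp18 (0.98), Kin (0.98), Cops7b (0.97), Cfap141 (0.97), Acrbp (0.97), Inhbc (0.96), C1rl (0.96), Gna15 (0.95) and Zmym6 (0.95). Usp18, Inhbc and Gna15 were in both groups of 10. With so few arrays many genes reach a high r (346 of 9994 had at least 0.7 over 8 arrays), and the similarity is a description of these arrays.

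Rows and columns of the slide each held both groups and were compared within. Each of the 2 rows of the slide carried 2 AhR and 2 control arrays, with control 1 and control 3 in row 1. Within row 1 the differences of Irf7, Isg15 and Mx1 were 0.24, 0.08 and 0.13, and within row 2 they were -0.15, -0.31 and -0.20. Oas1a was 0.31 in row 1 and 0.22 in row 2. With the row as a block, no probe was called and the median r between the 9 genes was 0.57. Within columns 1 to 4, the difference of Irf7 was 0.83, -0.19, -0.30 and -0.16, and that of Mx1 was 0.38, -0.11, -0.51 and 0.11. That of Isg15 was -0.0073, -0.06, -0.25 and -0.14, lower in AhR livers in all 4 columns. That of Oas1a was 0.70, 0.06, -0.11 and 0.42. With the column as a block the SE was 0.10 for Isg15 and 0.15 for Mx1, against 0.24 and 0.31 without it, and no probe was called (limma adjusted p = 1.00 for each of the 9 genes).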

How the data were processed

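Per the file headers, spot and local background intensity are medians over pixels from Agilent Feature Extraction 10.7.3.1, and each spot also has the scanner software's log10 ratio. A table of the authors' processed values is in log2; set against the scanner values it followed Cy5 over Cy3 with slopes of 0.978 to 0.988 and column medians of 0.0057 to 0.017, and the form of its dye correction is unknown. In R 4.3.3, limma 3.58.1 corrected background by normexp (offset 50) and each array by loess, without control spots (4259 of 62976) and flagged spots. Spots of a probe were averaged. Of 30367 probes, 17857 had Cy5 well above background on at least 4 of 8 arrays; the number of arrays limits the precision. RefSeq accessions, without versions, were matched to the GRCr8 gene table, which named 18004 probes. Probes have no coordinates here, since the array's design predates that build.

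Groups were compared with limma (lmFit, eBayes, Benjamini-Hochberg over kept probes). Single genes also had two-sided exact permutation tests, whose smallest p is 0.029 with 4 against 4. Pairs of genes had exact permutation tests of Pearson's r and Spearman's rho over 8 arrays. The limma step was tested on simulated data. Log2 ratios of the most alike pair of arrays had differences with an SD of 0.25, where duplicate spots gave 0.092. No array was thus a copy of another. A second hybridisation of the same pool could not be checked this way, since duplicate spots share labelling and hybridisation. The replicate number coincided with the slide column, and over all kept probes same-numbered AhR and control arrays did not deviate together. The genes and lists were chosen with earlier results of these data known. Named beyond the 9 genes were, per list, up to 3 genes of lowest p, a fixed set of pathway genes whatever their values, and the 10 genes most like the 9 over 8 and 7 arrays; cell type markers, Oas1k, Oas1i, Isg20 and Parp9 were named after their values were seen. Some genes that these rules name are not reported here. Alternatives changed background correction, normalization, filters, probe choice, slide row, replicate block and arrays left out.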

Additional observations from a re-analysis of the deposited data

Results flagged for a closer look

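Among 46 genes named here or listed by rule, the 4 arrays of each group were searched for 1 array far from the other 3 with Dixon's test. Of 92 groups, 7 stood out, where chance gives about 5% of groups. None of the 18 groups of the 9 interferon response genes did, so the low value of control 1 for Irf7 or Ifit3 did not pass this test. Control 4 was low for Psme2 (-0.279) and Ciita (-0.133), and high for Lcn2 (-0.072). AhR 4 was low for Tlr3 (-0.787) and Lcn2 (-0.418). AhR 3 was high for Cd74 (0.872) and Cxcl16 (0.495). No explanation was tested.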

How the results depend on the processing

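No probe was called under any of 21 alternatives. Of 198 values for the 9 genes under alternatives, 171 kept their direction, 27 reversed it and none was called in limma (adjusted p). Irf1, Ifit2 and Oas1a kept theirs throughout. Mx2, near 0, reversed without background subtraction (0.00022), with an offset of 10 (0.0048), with median centring (0.056), with Cy5 alone (0.030), within row 2 (0.069) and in the authors' value table (0.012). Mx1 reversed with median centring (0.058) and within row 1 (0.13), Isg15 within row 1 (0.077), and Stat2 (-0.043) and Irf7 (-0.15) within row 2. Leaving out 1 array at a time moved Stat2 between -0.091 and 0.072, Irf7 between -0.29 and 0.24, Isg15 between -0.31 and 0.046, Ifit3 between -0.017 and 0.23, Mx1 between -0.33 and 0.22, Mx2 between -0.090 and 0.063, and the 9 genes' median between -0.19 and 0.072. In Irf7, Isg15, Ifit3 and Mx1 the low end was without control 1, and the high end was without control 3 except for Isg15 (without AhR 1). Oas1a had its lowest unadjusted limma p, 0.043, without control 3 (adjusted p = 1.00). The median r between the 9 genes was 0.64 with median centring, 0.59 with Cy5 alone and 0.34 with the replicate block, and 0.33 (without control 3) to 0.58 (without control 1) with 1 array left out. The 5 genes' median r was 0.59 with the replicate block and 0.67 to 0.90 with 1 array left out. The replicate number is also the slide column, and the replicate block called no probe; over all probes, same-numbered arrays had deviations correlated at 0.0027, -0.062, 0.048 and -0.37, and no array correlated best with its own number. The gap of control 1 had a median of -0.86 to -0.59 over 16 alternatives. The cause of these changes was not tested. Measures of control 1's gap, the r of the 5 genes and the r without controls 1 and 3 or without column means were chosen after seeing the data.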

Other observations

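Endothelial markers, outside the interferon pathway, were higher in AhR livers in 8 of 8 measured genes (median difference 0.13, and 0.16 without control 1), and stellate cell and matrix markers in 9 of 10 (median 0.13, and 0.12 without control 1), where 47.7% of all probes were higher. Decorin, Dcn, averaged -0.664 ± 0.193 in AhR livers and -0.997 ± 0.086 in control livers (SD, n = 4 each), a difference of 0.33 with an SE of 0.11 (limma unadjusted p = 0.012, adjusted p = 1.00), and 0.35 without control 1. All 5 measured red cell markers were lower in AhR livers, with a median of -0.35, and of -0.52 without control 1. By array, all 3 lists overlapped between groups. Red cell median deviations were 0.05, 0.39, -0.81 and -0.38 on the AhR arrays, against -0.18, 0.90, -0.03 and 0.04 on the controls. Endothelial ones were 0.13, -0.10, 0.22 and 0.05, against -0.04, 0.12, -0.33 and -0.15. Stellate ones were 0.01, -0.02, 0.14 and 0.02, against -0.18, -0.30, 0.12 and 0.01. Markers of a list share arrays, so their counts are not independent. Of the AhR marker enzymes, Cyp1a1 was well above background on only 3 arrays and was not measured. Cyp1a2 averaged -1.36 ± 0.45 in AhR livers and -1.63 ± 0.43 in control livers (SD, n = 4 each), a difference of 0.26 with an SE of 0.25 (limma adjusted p = 1.00), and 0.39 without control 1. Without control 1, Nqo1 differed by -0.39 and Ugt1a6 by -0.02, against -0.35 and -0.25 on 8 arrays.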
